A study of Mus musculus with 36 samples.

Results

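The guanylate-binding proteins (GBPs) are a family of large GTPases encoded in the mouse by neighbouring genes on 2 chromosomes. The 10 family genes described here (Gbp2, Gbp2b, Gbp3, Gbp4, Gbp5, Gbp6, Gbp7, Gbp8, Gbp9 and Gbp10) were taken by name from a count table of 54532 genes, and each name matched 1 gene. RNA-seq was performed on bone marrow–derived macrophages (BMDMs), which were grown with MCSF from C57BL/6 mice. The wild-type (WT) cells carried Bmal1 flox/flox alleles without Cre (n = 3 per treatment), and the knockout (KO) cells were LysM-Cre;Bmal1 flox/flox (n = 6 per treatment), so that both genotypes shared the floxed alleles and only KO cells carried Cre, which the LysM promoter drives in myeloid cells. The mice were females of 13 to 17 weeks, per the study's methods. Cells of each genotype received for 6 h vehicle (DMSO), 100 µM CCM, 100 nM LPS or both agents (LPS+CCM), which gave 36 libraries. CCM is a small molecule that binds the PASB domain of the clock transcription factor BMAL1, and LPS comes from the outer membrane of Gram-negative bacteria.

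GBPs belong to the dynamin superfamily. Interferons induce them strongly, and the proteins bind GTP through a phosphate-binding loop, assemble on bacteria and on the vacuoles in which pathogens live, and promote inflammasome responses to LPS in the cytosol. Some members carry at their carboxy end a CaaX box, a cysteine at the fourth position from the end to which an isoprenoid lipid is attached and which helps anchor the protein in membranes. In macrophages, LPS is known to reach these genes largely through induced type I interferon, with interferon regulatory factors acting on their promoters.

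Library totals, in read pairs assigned to genes, lay between 13469262 and 28288923. Arntl, the gene of BMAL1, was at 7.27, 8.61 and 9.76 counts per 1000000 (CPM) in the WT vehicle libraries and between 2.97 and 7.74 CPM (median 7.59) in the KO vehicle libraries, where the lowest value was that of replicate 6. Under LPS, Arntl was at 8.02 to 10.2 CPM in WT and at 2.13 to 9.03 CPM in KO, again lowest in replicate 6, and edgeR did not call it different between genotypes (adjusted p = 1.0 with vehicle and 0.986 under LPS). These counts cover the whole gene, so they check the deletion only in part. The 7 macrophage markers summed to 11236 CPM or more in each of the 36 libraries, the 8 markers of T and NK cells to 8.35 CPM or less, the 7 neutrophil markers to between 381 and 1163 CPM and the 4 fibroblast markers to between 271 and 1449 CPM. The neutrophil markers differed among themselves. Ly6g was under 1 CPM in all 36 libraries and Camp, Mpo and Elane at 52.1 CPM or less, whereas Ngp, S100a8 and S100a9 were at 97.0 CPM or more. Libraries are named by group and replicate number. The methods give n as mice, but no source used here says that a replicate number marks 1 mouse across treatments, and p-values measure the spread between these libraries. In such bulk samples, fewer cells of a type and less RNA per cell cannot be told apart.

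The members lie in 2 clusters (mm10). On the plus strand of chromosome 3, in the order of their starts, are Gbp5 (142493978 to 142522344), Gbp7 (142530342 to 142550149), Gbp3 (142560026 to 142573209), Gbp2b (142594847 to 142619179) and Gbp2 (142620602 to 142638008). On the minus strand of chromosome 5 are Gbp8 (105014150 to 105139540), Gbp9 (105077630 to 105139539), Gbp4 (105115767 to 105139586), Gbp10 (105215699 to 105239533) and Gbp6 (105270702 to 105293698). To show what the members share, the stretch that codes for the GTP-binding loop, read from the GENCODE coding sequence on this build, is given 5′ to 3′ for 4 of them, with the codons of the 2 fixed glycines, the lysine and the serine in capitals.
Gbp2: GGCctctaccgcacaGGCAAATCC
Gbp5: GGTctttatcgcacaGGCAAATCC
Gbp6: GGAttgtaccgtacaGGGAAGTCC
Gbp10: GGAtggtcccgtactGGGAAGTCC
Each of the 10 members holds this loop, and its first codon is codon 39 in Gbp3, codon 43 in Gbp4, Gbp6, Gbp8, Gbp9 and Gbp10, and codon 45 in Gbp2, Gbp2b, Gbp5 and Gbp7.

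The last 30 coding bases, stop codon included, set 3 members of the chromosome 3 cluster apart, and they are shown with the cysteine codon of the CaaX position in capitals where there is one.
Gbp2: aaatcgtctgggaagTGCactatactctga
Gbp2b: cctccacctcgatcaTGCaccatactttaa
Gbp5: agacatcatcatgacTGTgttataagctaa
Gbp3: ctgaaattcctcggctcactaagtagttag
Gbp7: cagaattcagacaaagttagaaaactctaa
In the transcript marked as principal in the annotation, Gbp2, Gbp2b and Gbp5 had the cysteine codon and the other 7 members did not. The principal transcript was chosen after it was seen that the longest coding sequence of Gbp5 lacks this codon. Gbp5 has 3 distinct complete coding sequences in the annotation, of which 1 ends in this way. Gbp2 has it in 1 of 2 coding sequences, and so has Gbp4, though not in the principal one, so counts per gene do not separate the 2 ends.

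Sequence similarity bears on how reads could be assigned. Gbp6 and Gbp10 had the closest coding sequences, with 98.4% identity over 1836 aligned bases, and Gbp5 and Gbp8 the most distant, with 52.8%. Gbp2 and Gbp2b were 82.5% identical. Of all windows of 100 bases in the transcripts of Gbp10, 60.9% also occurred in another member, mostly Gbp6, and 36.5% of those of Gbp6 did, against 4.39% for Gbp8 and 1.65% or less for the other members. In addition, the predicted gene Gm43302 overlaps 46.3% of the exonic bases of Gbp10 and 29.0% of those of Gbp6, and Gm43802 overlaps 11.3% of those of Gbp7. The counts of Gbp6 and Gbp10 are therefore uncertain, and whether the counting used strand is not given in the sources used here. Smaller overlaps, of 1.77% or less of exonic bases, touch Gbp2 (with Mir6381) and Gbp4, Gbp8 and Gbp9 (with each other).

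Promoter windows of RefSeq (GRCm38.p6, 250 bases before to 50 after a start) were given for 5 members, all on chromosome 3, with 6 starts in all, since Gbp3 has 2. They were searched on both strands for the core of the interferon-stimulated response element (ISRE, GAAANNGAA), which interferon regulatory factors recognise, and the 30 bases around the matches are shown with the match in capitals.
Gbp2, chr3:142620595-142620624: ctcttttagtTTCACTTTCactgtcttaag
Gbp2b, chr3:142594701-142594730: tacttctaatTTCACTTTCttctttatcac
Gbp3, chr3:142559990-142560019: aggacacagtTTCAGTTTCTATTTCccaga
Gbp5, chr3:142496760-142496789: cttgtgtagtTTCAATTTCagtttagagaa
Gbp7, chr3:142530274-142530303: tgtgtgcagtTTCAGTTTCagttctccatc
The motif occurred in 5 of the 6 windows and in 8.56% of all 32851 windows of that length. Every match read as the reverse complement on the coding strand, and in Gbp3 2 matches overlapped. Counted from the start, the first base of the match lay at -58 in Gbp2, -136 in Gbp2b, -44 in Gbp3, -164 in Gbp5 and -52 in Gbp7. The RefSeq starts used here for Gbp5 (142496934), Gbp2 (142620663) and Gbp3 (142560044) lie inside the annotated intervals of these genes. The ISRE matches of Gbp2 and Gbp5 do so as well, so they are upstream of the RefSeq start but not of the annotated gene start.

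The core of the gamma-activated site (GAS, TTCNNNGAA), an element of interferon-responsive promoters, occurred in 2 of the 6 windows, those of Gbp5 and Gbp7, and in 8.30% of all windows. These 2 promoters hold the same 9 bases, shown in capitals.
Gbp5, chr3:142496872-142496901: tggccgttatTTCTCAGAAccaagcacaga
Gbp7, chr3:142530239-142530268: aagcagaagcTTCTCAGAAagtcagcacaa
A second GAS core was present in both, TTCTGGGAA at -245 in Gbp5 and TTCCAGGAA at -106 in Gbp7. The NF-kB motif (GGNNTTTCC) was found in the window of Gbp5 and in 5.82% of all windows, and the E-box CACGTG, which BMAL1 and CLOCK recognise, in 0 of the 6 windows and in 7.15% of all. Such matches are descriptions of these letters only.

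Unstimulated WT macrophages contained little GBP RNA. The 10 members together made up 0.00413% ± 0.00042 of all counts (SD, n = 3). Their summed level was 35.2 ± 2.90 CPM, and since CPM are scaled by normalization factors, the 2 values do not convert directly. Per length of the gene, Gbp2 was highest, at 2.89 ± 0.252 CPM per kilobase, followed by Gbp3 (2.22 ± 0.113) and Gbp9 (2.10 ± 0.205), whose libraries overlapped. Gbp7 (0.770 ± 0.126) and Gbp8 (0.656 ± 0.0429) came next and overlapped each other. Gbp4 (0.243 ± 0.0329), Gbp5 (0.150 ± 0.0535) and Gbp6 (0.0634 ± 0.0187) followed without overlap between neighbours. No read pair of Gbp2b or Gbp10 was counted in the 3 libraries. In KO cells the order was close to this, except that Gbp5 came before Gbp4, but all neighbouring members from Gbp2 down to Gbp6 overlapped. Gbp2b and Gbp10 had 1 count each over the 6 KO vehicle libraries.

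LPS raised all 10 members in WT macrophages (edgeR, adjusted p between 8.31e-12 and 0.0171), where 30.6% of all 14501 genes tested were called higher, meaning an edgeR adjusted p of at most 0.05. Gbp5, a member that promotes inflammasome assembly, went from 0.661, 1.37 and 0.955 CPM in the 3 vehicle libraries to 1508, 1432 and 1401 CPM in the 3 LPS libraries. That is a log2 fold change of 10.53 (standard error 0.14), the largest among the 8 members with counts in both groups. Gbp2, a prenylated member that is recruited to bacteria and to vacuoles, had 6.54, 7.72 and 7.52 CPM with vehicle and 2060.5, 2077 and 2019 CPM with LPS, a log2 fold change of 8.15 (0.09). The vehicle and LPS libraries lay far apart for both genes. The log2 fold change was 8.22 for Gbp6 (standard error 0.13), 7.37 for Gbp3 (0.08), 6.51 for Gbp7 (0.11), 5.19 for Gbp4 (0.10) and 4.0 for Gbp9 (0.08). Gbp2b had 0 counts with vehicle and 138 with LPS, so it was at least 59.0-fold higher, taking 3 counts over the 3 vehicle libraries as the floor. On the same floor Gbp10, with 148 counts under LPS, was at least 63.2-fold higher.

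Gbp8 stood apart. It had 2.20, 2.43 and 2.15 CPM with vehicle and 3.54, 3.15 and 3.61 CPM with LPS, so that its groups did not overlap but differed by only 0.61 on the log2 scale (standard error 0.19, edgeR adjusted p = 0.0171). The call was lost without LPS replicate 3 (adjusted p = 0.0559), with total counts alone as the scaling (0.369), with no filter beyond 1 count (0.0616) and with all 36 libraries in 1 fit (0.0554). The median log2 fold change of the 10 members was 7.76, or 6.25 with Gbp2b and Gbp10 set at their bounds, against -0.05 over all genes tested.

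**Figure D1:**
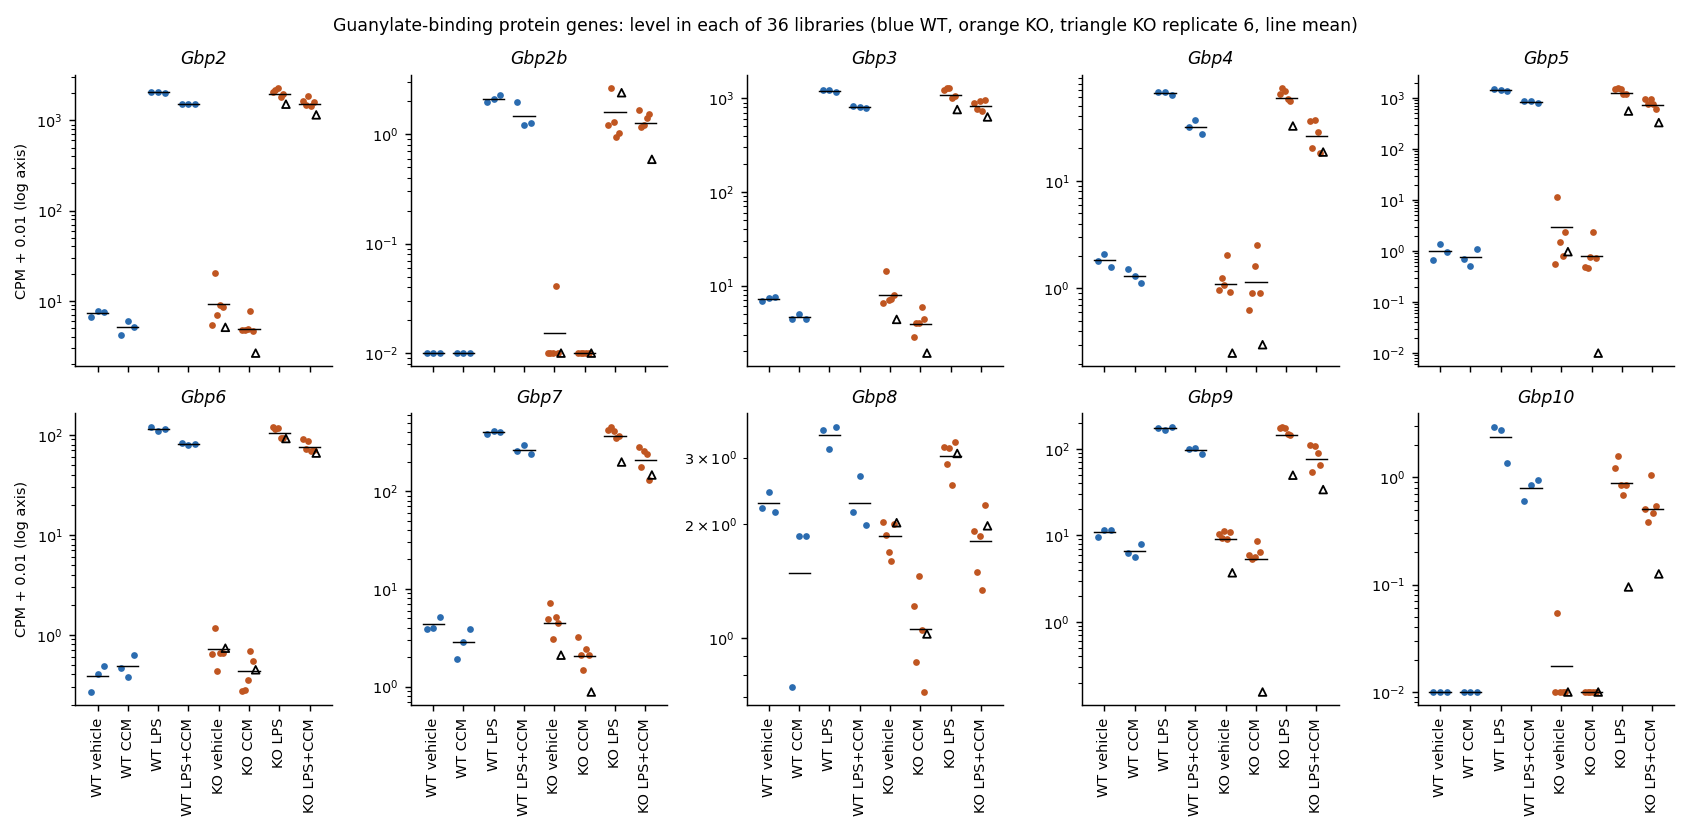
Level of each guanylate-binding protein gene in each of the 36 libraries, in CPM plus 0.01 on a log axis that differs between panels; blue points are WT (n = 3 per group), orange points KO (n = 6), black triangles KO replicate 6 and lines group means. The LPS-treated libraries lie above the vehicle and CCM libraries of the same genotype for 9 genes, and Gbp8 is the exception, its highest and lowest group means lying within 1.05 and 3.43 CPM.

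The induced levels spread widely. Per length, Gbp2 reached 816 ± 11.9 CPM per kilobase under LPS in WT cells (SD, n = 3), Gbp3 367 ± 10.1, Gbp5 218 ± 8.28, Gbp7 71.0 ± 2.97, Gbp9 33.5 ± 1.0, Gbp6 19.3 ± 0.886 and Gbp4 8.74 ± 0.270. Gbp8 (0.997 ± 0.0721), Gbp2b (0.744 ± 0.0606) and Gbp10 (0.609 ± 0.224) stayed below 1. All neighbours in this order were separated in all libraries except Gbp2b and Gbp10. The 4 members with the highest levels are all in the chromosome 3 cluster, whose other gene, Gbp2b, was among the 2 lowest. The members with the CaaX cysteine codon ranked 1, 3 and 9. Together the 10 genes made up 0.484% ± 0.00903 of all counts in the LPS libraries.

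**Figure D2:**
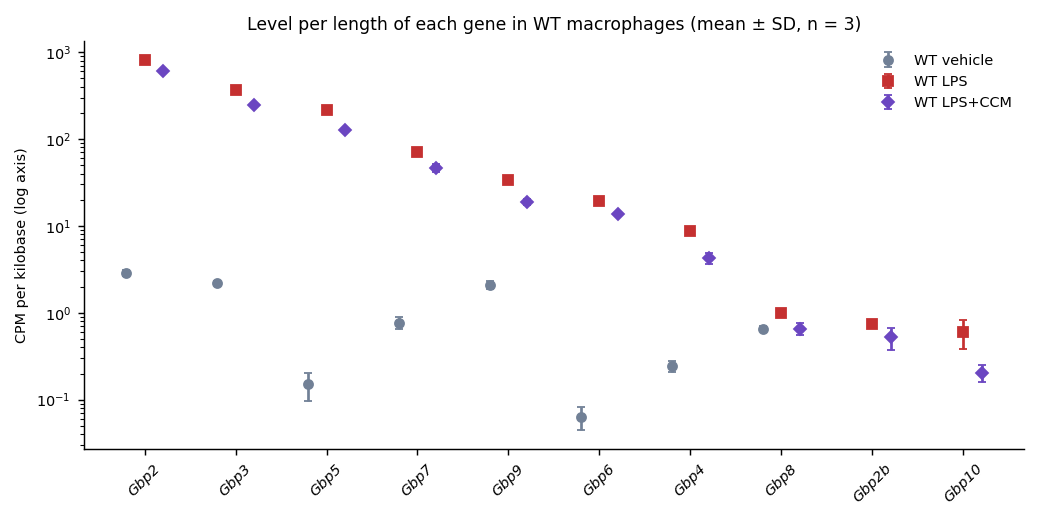
Mean level per gene length of the 10 genes in WT macrophages, in CPM per kilobase on a log axis, with error bars of 1 SD (n = 3 libraries) that are often smaller than the symbols; grey circles are vehicle, red squares LPS and purple diamonds LPS+CCM, and Gbp2b and Gbp10 have no vehicle symbol because they were at 0. Under LPS the order runs from Gbp2 at 816 to Gbp10 at 0.609 CPM per kilobase.

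In KO macrophages, the 9 members tested all rose with LPS (edgeR, adjusted p between 4.09e-11 and 0.00128), against 22.4% of 13648 genes called higher. Gbp10 did not pass the filter on low counts. Gbp5 ranged from 0.545 to 11.7 CPM (median 1.23) with vehicle and from 557 to 1591 CPM (median 1351) with LPS, a log2 fold change of 8.70 (standard error 0.85) that was 9.90 without replicate 2, whose vehicle library held the 11.7 CPM. Gbp2 ranged from 5.06 to 20.2 CPM (median 7.69) with vehicle and from 1516 to 2304 CPM (median 2023) with LPS, a log2 fold change of 7.74 (0.39). For both genes the groups did not overlap, and the standard errors were larger than in WT cells. Log2 fold changes of 7.19 for Gbp6 (standard error 0.21), 7.11 for Gbp3 (0.30), 6.33 for Gbp7 (0.32), 5.67 for Gbp4 (0.35) and 3.98 for Gbp9 (0.33) followed. Gbp8 rose by 0.69 (edgeR adjusted p = 0.00128, standard error 0.14), from 1.59 to 2.01 CPM with vehicle to 2.52 to 3.30 CPM with LPS, and lost the call when libraries were scaled by total counts alone (adjusted p = 0.0942). For the 2 scarce members, the ratio of LPS to vehicle was 206 for Gbp2b (149 counts against 1; 95% counting interval 36.4 to 8194) and 123 for Gbp10 (89 against 1; 21.5 to 4916).

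CCM alone was compared with vehicle to see whether it acts on resting cells. In WT macrophages, 0 of the 8 members tested were called by edgeR, and 4 had an unadjusted p under 0.05, as did 1404 of all genes, while 0.057% of 14024 genes were called. Levels were nonetheless mostly lower: 7 of the 8 members had a negative log2 fold change, with a median of -0.56 against -0.01 over all genes, and in 5 of them all CCM libraries lay below all vehicle libraries, which 6.5% of all genes tested did. Gbp3 had 4.36, 4.94 and 4.40 CPM with CCM against 6.83, 7.33 and 7.55 CPM with vehicle, a log2 fold change of -0.68 (edgeR adjusted p = 0.122, standard error 0.14). Gbp9 had 6.19, 5.59 and 8.02 CPM against 9.66, 11.5 and 11.5 CPM, a log2 fold change of -0.73 (edgeR adjusted p = 0.148, standard error 0.16). For both genes the 2 groups did not overlap, and they were the 2 members called lower by DESeq2, which called 2.41% of all genes in either direction. The exception in direction was Gbp6, with 0.459, 0.370 and 0.617 CPM under CCM and 0.257, 0.397 and 0.477 CPM with vehicle (log2 fold change 0.33 ± 0.41, standard error). Gbp3 and Gbp9 were also called with no filter beyond 1 count (1.47% of all genes called) and when the replicate number served as a block (1.82%), but in none of the fits that left out 1 library. Same-numbered libraries did not all deviate together with a correlation over 0.1 in this comparison (0.0512 to 0.466).

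In resting KO cells, edgeR called 0 of 8 members and 0.0% of 13799 genes, and 5 members had an unadjusted p under 0.05, against 2.41% of all genes. DESeq2 called 0 members as well. The log2 fold change was negative for 7 of 8 members, with a median of -0.86 against 0.01 over all genes. Gbp8 was the 1 member whose groups did not overlap, at 0.711 to 1.45 CPM (median 1.03) with CCM against 1.59 to 2.01 CPM (median 1.93) with vehicle, and 0.261% of all genes showed such a separation downward. The difference was -0.82 on the log2 scale, with a standard error of 0.19 (edgeR adjusted p = 0.725). Gbp2, Gbp3, Gbp7, Gbp8 and Gbp9 were lower in all 6 same-numbered pairs of libraries. The share of all genes that were lower in every pair was not counted, so this is a description only. Same-numbered KO libraries deviated together here, and a fit that took the replicate number as a block called 2 members lower, along with 3.11% of all genes in either direction. These were Gbp3 (1.89 to 5.88 CPM with CCM against 4.34 to 14.2 with vehicle) and Gbp7 (0.872 to 3.24 against 2.09 to 7.21), with edgeR adjusted p = 0.0102 and 0.00489, the lowest over their alternatives, which reached 1.0. Without replicate 6, Gbp7 and Gbp9 were called, and 1.01% of all genes.

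CCM lowered the LPS-induced level of 8 of the 10 members in WT macrophages (edgeR, LPS+CCM against LPS), where 7.78% of 13579 genes tested were called lower. The summed level of the members went from 5534, 5498 and 5342 CPM in the 3 LPS libraries to 3709, 3728 and 3529 CPM in the 3 LPS+CCM libraries. For 9 members all LPS+CCM libraries lay below all LPS libraries, which 15.3% of all genes tested did. The median log2 fold change of the members was -0.60, against 0.01 over all genes.

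Among the abundant members of chromosome 3, Gbp2 had 2060.5, 2077 and 2019 CPM with LPS and 1541, 1519 and 1518 CPM with LPS+CCM, a log2 fold change of -0.43 (edgeR adjusted p = 9.73e-05, standard error 0.04). Gbp3 went from 1215, 1221 and 1161 CPM to 819, 814 and 784 CPM, a log2 fold change of -0.57 (edgeR adjusted p = 4.29e-05, standard error 0.04). In both genes the difference between groups was many times the spread within them. Gbp5 went from 1508, 1432 and 1401 CPM to 874, 879.7 and 788 CPM (log2 fold change -0.77, edgeR adjusted p = 3.11e-05, standard error 0.05), the largest fall within this cluster. Gbp7, which takes part in the assembly of the phagocyte oxidase, went from 382, 415 and 398 CPM to 255, 293 and 239 CPM, a log2 fold change of -0.60 (edgeR adjusted p = 0.000401, standard error 0.07). Gbp2b, at 1.95, 2.07 and 2.29 CPM with LPS and 1.96, 1.20 and 1.25 CPM with LPS+CCM, overlapped between groups and was not called (log2 fold change -0.53 ± 0.26, standard error, edgeR adjusted p = 0.246).

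Of the chromosome 5 members, Gbp4 had the largest fold change of those above 10 CPM. It had 66.5, 66.9 and 63.2 CPM with LPS and 31.8, 36.4 and 27.3 CPM with LPS+CCM, a log2 fold change of -1.04 (edgeR adjusted p = 8.17e-05, standard error 0.09). Gbp9 followed, from 173, 168 and 178 CPM to 101, 102 and 87.9 CPM (log2 fold change -0.84, edgeR adjusted p = 4.29e-05, standard error 0.06). These 2 members retained 48.5% ± 5.67 and 56.0% ± 5.93 of the LPS level, taken per replicate number (SD, n = 3), and Gbp2 74.4% ± 1.11. Gbp6 fell from 121, 110.4 and 114 CPM to 82.2, 79.2 and 80.7 CPM, a log2 fold change of -0.51 (edgeR adjusted p = 0.000182, standard error 0.05). The scarce Gbp10 had 2.95, 2.76 and 1.36 CPM with LPS and 0.595, 0.837 and 0.937 CPM with LPS+CCM, a log2 fold change of -1.54 (edgeR adjusted p = 0.0201, standard error 0.36). Its adjusted p lay above the threshold without LPS replicate 1 or 2 or LPS+CCM replicate 1 or 2 (0.0519 to 0.0863). Gbp8 had 3.54, 3.15 and 3.61 CPM with LPS and 2.14, 2.67 and 1.98 CPM with LPS+CCM (log2 fold change -0.60, standard error 0.20). It missed the threshold (edgeR adjusted p = 0.0868) and passed it in the fit with the replicate block (0.0493; range over the alternatives 0.0493 to 0.752), which called 23.7% of all genes and for which the same-numbered libraries deviated together. With all 36 libraries in 1 fit, which shares the spread of the KO cells, 0 members and 0.108% of all genes were called (lowest edgeR adjusted p of a member 0.602). Under LPS the 5 dendritic cell markers, of which the LPS-inducible Ccr7 made the largest part, summed to 9.62 to 11.5 CPM and with LPS+CCM to 6.43 to 8.80 CPM. Their part in the result was not tested.

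**Figure D3:**
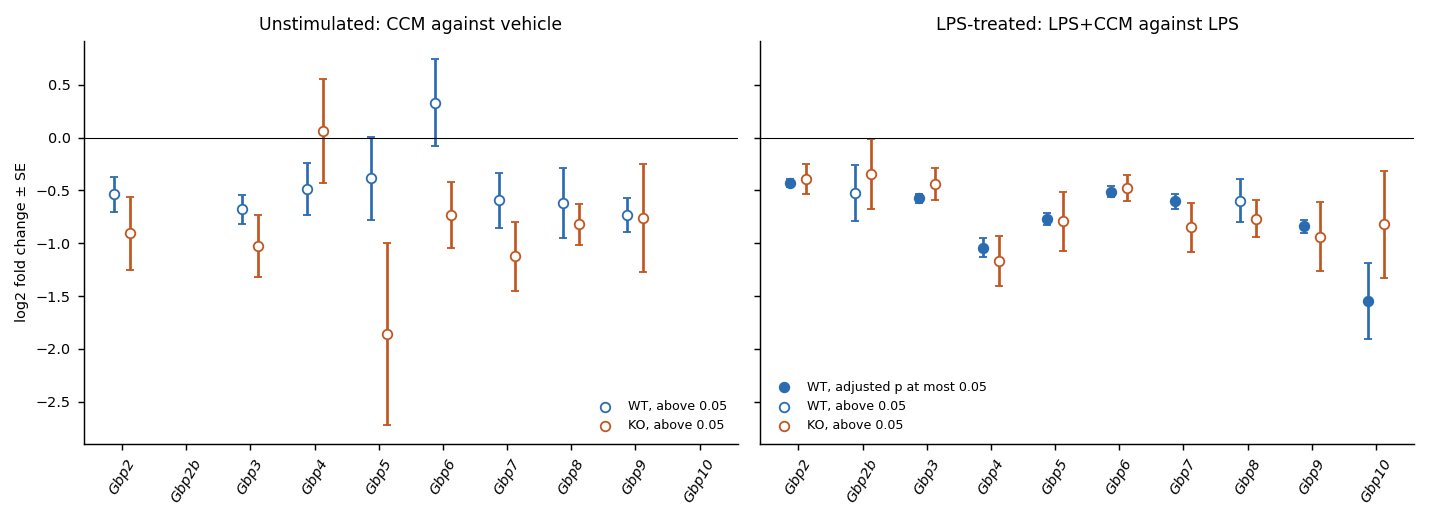
Log2 fold change with CCM for each gene, with error bars of 1 standard error from edgeR; the left panel compares CCM with vehicle and the right panel LPS+CCM with LPS, blue being WT (3 against 3 libraries) and orange KO (6 against 6), filled where the adjusted p was at most 0.05. Gbp2b and Gbp10 were not tested in the left panel. All 20 values in the right panel are below 0, from -0.34 to -1.54, with longer bars in KO.

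The same contrast in KO macrophages gave lower values for all 10 members but 0 calls (edgeR), while 0.105% of 13386 genes were called lower and 8 members had an unadjusted p under 0.05, against 7.99% of all genes. The median log2 fold change was -0.78, against 0.00 over all genes. Gbp4 ranged from 32.3 to 73.1 CPM (median 60.6) with LPS and from 18.3 to 36.6 CPM (median 24.3) with LPS+CCM, and 6 of 6 same-numbered pairs were lower (log2 fold change -1.17, edgeR adjusted p = 0.0824, standard error 0.24). Gbp5 ranged from 557 to 1591 CPM (median 1351) and from 330.4 to 975 CPM (median 769.5), a log2 fold change of -0.79 (edgeR adjusted p = 0.405, standard error 0.28). The groups overlapped for both genes. Gbp8 (2.52 to 3.30 CPM with LPS, 1.33 to 2.24 with LPS+CCM) and Gbp6 (92.0 to 121 against 65.8 to 91.4) were the 2 members whose groups did not overlap, a separation that 0.725% of all genes tested showed. Their log2 fold changes were -0.77 (standard error 0.18, edgeR adjusted p = 0.121) and -0.48 (standard error 0.12, edgeR adjusted p = 0.177). Of the other members, Gbp2, Gbp3, Gbp7 and Gbp9 were lower in 6 of 6 pairs, Gbp10 in 4 and Gbp2b in 3. The share of all genes that were lower in every pair was not counted here either.

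How many members passed the threshold in KO cells depended on the fit. DESeq2 called 4 of them lower (Gbp4, Gbp6, Gbp7 and Gbp8) and 1.30% of all genes in either direction. EdgeR called 2 with all 36 libraries in 1 fit (Gbp4 and Gbp8, and 1.81% of all genes) and 4 without replicate 6 (Gbp4, Gbp5, Gbp7 and Gbp9, and 1.27% of all genes). In the fit with the replicate block, all but Gbp2b and Gbp10 were called, as were 5.80% of all genes, although 1 or more same-numbered pairs did not deviate together here (correlations from -0.10 to 0.81). The range of edgeR adjusted p for Gbp4 over these and the other alternatives was 0.00105 to 0.573, DESeq2 included.

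Genotypes were compared directly, to ask whether the response to LPS or to CCM differed in KO cells. The Arntl counts checked the deletion in these cells only in part. With vehicle, 0 of 8 members and 0.0% of 14385 genes differed between KO and WT by edgeR. One member, Gbp6, had an unadjusted p under 0.05, as did 0.820% of all genes. Gbp6 had a median of 0.651 CPM in KO and 0.397 CPM in WT (log2 fold change 0.89 ± 0.37, standard error, edgeR adjusted p = 1.0). Gbp8 was the 1 member whose vehicle groups did not overlap, at 1.59 to 2.01 CPM in KO against 2.15 to 2.43 CPM in WT. The share of all genes with such a separation is not given here. Under LPS, 0 of 10 members and 0.0% of 13794 genes were called, and all 10 fitted values were lower in KO, with a median log2 fold change of -0.17. Only Gbp10 had an unadjusted p under 0.05, at 0.0852 to 1.55 CPM in KO against 1.36 to 2.95 CPM in WT (log2 fold change -1.40 ± 0.49, edgeR adjusted p = 0.986). Of all genes, 0.761% had such a p under LPS. DESeq2 called 0 members in both comparisons.

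The difference between genotypes in the effect of CCM under LPS was called for 0 of 10 members and 0.0% of 14546 genes (edgeR), with 0 members at an unadjusted p under 0.05 and 0 called by DESeq2. It was 0.05 ± 0.20 on the log2 scale for Gbp2, -0.0038 ± 0.41 for Gbp5 and -0.11 ± 0.35 for Gbp4 (standard error, KO minus WT). Gbp10 had the largest of these differences, at 0.75 ± 0.76. The standard errors of the 10 differences ran from 0.18 for Gbp6 to 0.76 for Gbp10, while the WT effects themselves ran from -0.43 for Gbp2 to -1.54 for Gbp10. For the effect of LPS, edgeR called a difference between genotypes in 0 of 10 members and 0.0% of 15093 genes, and DESeq2 called 0 members. Gbp6, with a difference of -1.01 ± 0.31, was the 1 member with an unadjusted p under 0.05, as were 0.742% of all genes.

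Whether CCM acted differently with and without LPS was tested as an interaction within each genotype. In WT, edgeR called 0 members, against 2.09% of 14747 genes, and DESeq2 called 0. Gbp4 (-0.58 ± 0.22, standard error) and Gbp6 (-0.85 ± 0.28) had an unadjusted p under 0.05 and an adjusted p of 0.229 and 0.227, both lower under LPS+CCM than the 2 single effects add up to. The other 6 members with an estimate lay between -0.43 and 0.09, and for Gbp2b and Gbp10, at 0 in both unstimulated groups, none could be had. In KO the count was 0 of 10 members with both tools, against 0.00685% of 14588 genes by edgeR, and Gbp4 alone had an unadjusted p under 0.05 (-1.20 ± 0.51, edgeR adjusted p = 1.0). Of all genes, 3.67% had such a p in KO.

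Single libraries stood apart among the KO cells. KO replicate 6 had the lowest level of 8 of the 10 members under LPS, 7 under LPS+CCM, 6 under CCM alone and 5 with vehicle. Under LPS, Gbp9 was at 49.7 CPM in this library and at 146 to 181 CPM in the other 5, and Gbp5 at 557 against 1195 to 1591 CPM. The 10 members together made up 0.240% of its counts, against 0.425 to 0.508% in the other KO LPS libraries, the lowest share of the 6. Under LPS, Gbp8 (3.07 CPM, within the range of the others) and Gbp2b (2.38 CPM, the second highest) were not low in this replicate. In its LPS library Arntl was lowest of the KO LPS libraries, at 2.13 CPM, and the neutrophil and the T and NK cell markers summed to 1163 and 3.58 CPM, the highest of the 6. The neutrophil marker Ly6g was at 0.170 CPM or less in all 6. Their part in the result was not tested. With CCM alone, Gbp9 had 2 counts in replicate 6 (0.145 CPM) and 5.37 to 8.68 CPM in the other 5 libraries.

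KO vehicle replicate 2 was high instead. It had the highest level of 6 members, with Gbp5 at 11.7 CPM against 0.545 to 2.36 CPM in the other 5 libraries and Gbp2 at 20.2 against 5.06 to 8.96 CPM. Its Gbp8, at 1.87 CPM, and Gbp9, at 9.30 CPM, lay within the range of the others. Under LPS replicate 2 was again highest for 6 members, and with CCM alone replicate 4 was.

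**Figure D4:**
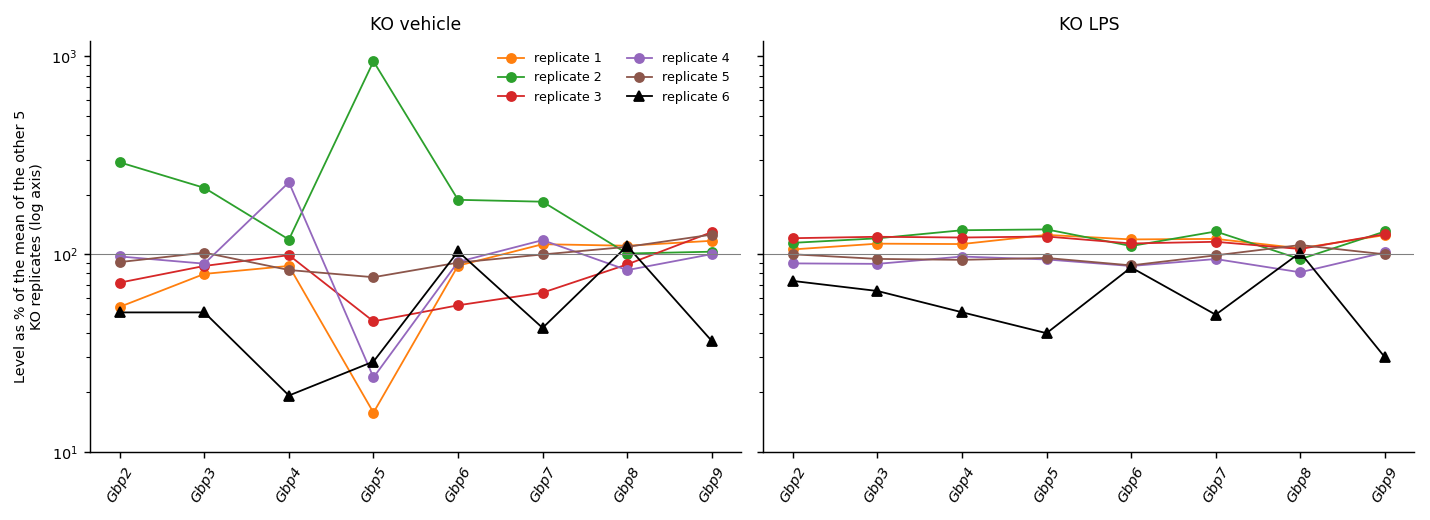
Level of 8 genes in each KO library as a percentage of the mean of the other 5 KO libraries of the same treatment, on a log axis; the left panel shows vehicle and the right panel LPS, lines join the genes of 1 library, and Gbp2b and Gbp10 are left out because they were at 0 in most vehicle libraries. Replicate 6 (black triangles) falls to 30.1% for Gbp9 under LPS, and replicate 2 (green) rises to 944% for Gbp5 with vehicle.

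The genes that act with the GBPs were followed by count. Of the 21 tested genes of interferon signalling, LPS raised 18 and lowered 1 in WT, where 30.6% of all genes were called higher and 32.4% lower. It raised 17 and lowered 1 of 20 in KO, where 22.4% of all genes were called higher and 24.7% lower. With LPS+CCM, 9 of 21 were called lower than with LPS in WT and 1 higher, while 7.78% of all genes were called lower and 4.15% higher. Ifnb1, which encodes interferon beta, was at 1.64 ± 0.329 CPM with LPS and 0.367 ± 0.108 with LPS+CCM in WT (log2 fold change -2.14, edgeR adjusted p = 0.00322). The transcription factor genes Irf1 (-0.82, edgeR adjusted p = 0.000401), Irf7 (-0.45, 0.000495) and Stat2 (-0.32, 0.00488) fell with it, and Ifngr1, a receptor subunit for interferon gamma, was the gene called higher (0.33, 0.00540). In KO, 0 of the 21 were called by edgeR and 8 had an unadjusted p under 0.05, against 7.99% of all genes. Ifnb1 had 1.82 ± 0.962 CPM with LPS and 0.758 ± 0.282 with LPS+CCM in KO.

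The immunity-related GTPases, which act with the GBPs on pathogen vacuoles, were followed in the same way. All 9 tested rose with LPS in both genotypes, where 30.6% of all genes in WT and 22.4% in KO were called higher. With LPS+CCM 9 of 9 were lower in WT, with a median log2 fold change of -0.59, while 7.78% of all genes were called lower and 4.15% higher. The same shares apply to the lists below. Iigp1 (-1.08 in WT and -1.16 in KO, edgeR adjusted p = 2.68e-05 and 0.0179) was the 1 gene of this list called in KO, where 0.105% of all genes were called lower. In KO, 9 of 9 had an unadjusted p under 0.05, against 7.99% of all genes. Of 9 genes of the caspase-11 pathway and the inflammasomes, in which GBPs promote activation, LPS+CCM lowered 7 in WT, among them Casp4 (-0.38, edgeR adjusted p = 0.000278) and Il18 (-0.79, 0.000262). In KO edgeR called 0 of them, and 3 had an unadjusted p under 0.05, against 7.99% of all genes. LPS alone had raised 8 of the 9 in each genotype. Among genes with a role in placing GBPs on membranes, the counts were small. Of 13 genes of the conjugation machinery, Atg5 (0.28) and Gabarapl1 (0.23) were called higher with LPS+CCM in WT and Trim21 (-0.75) lower. Of 6 prenylation genes, such as Fnta, and of 2 dissociation inhibitor genes, 0 were called in this comparison by edgeR. In each of these lists 1 gene had an unadjusted p under 0.05, against 25.7% of all genes. Among 6 other dynamin superfamily genes, the interferon-induced Mx1 (-0.81, edgeR adjusted p = 0.000138) and Mx2 (-0.70, 0.000217) were the 2 called lower. The family gene Gbp11, not among the 10, was at 2.67 ± 0.688 CPM with LPS and 1.21 ± 0.365 with LPS+CCM in WT (-1.13, edgeR adjusted p = 0.0366). The counts of these lists are descriptions, and with CCM alone 0 genes of any of them were called by edgeR in either genotype. In WT, 9 of 63 list genes had an unadjusted p under 0.05 with CCM alone, against 1404 of all 14024 genes tested. In KO, 10 of 62 list genes had such a p, against 333 of all 13799 genes tested. Calls of the list genes by DESeq2 were not counted.

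The genes whose levels followed the members most closely were found by the correlation of log2 CPM with the mean of the 8 members of at least 1 CPM on average, over 12564 genes. Across all 36 libraries these were Ifi213, Ifit2, Ifi208, Ddx58 and Ifit1bl1 (Pearson r = 0.994 to 0.992). All are known as interferon-inducible genes, and the points share the split between libraries with and without LPS. Over the 18 LPS-treated libraries alone they were Ifih1, Cmpk2, Ifit2, Tnfsf10 and Parp9 (r = 0.991 to 0.976). The libraries share genotype, treatment and sequencing depth, so these values describe the libraries and carry no test.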

How the data were processed

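RNA-seq was examined for BMDMs of WT (n = 3) and KO (n = 6) mice in 4 treatments, 36 libraries. RNA was enriched with poly(T) beads. Per the labels and the submitters' processing notes, the authors trimmed reads with fastp, aligned them to mm10 with HISAT2 2.0.5 and assigned read pairs to genes with featureCounts 1.5.0-p3. The deposited values are these raw counts, with 0 per-sample columns left out. How reads with several matches were treated and the strand setting are not given in the sources used here.

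Counts were tested with edgeR 4.0.16 in R 4.3.3 (filterByExpr, TMM, glmQLFit, glmQLFTest, two-sided), on the groups of each comparison alone, with no block and Benjamini-Hochberg adjustment over all genes at 0.05. Values after ± in a fold change are standard errors, and otherwise SDs. CPM use TMM factors over all 36 libraries. CPM per kilobase were divided by the gene length of the deposited table. Correlations use log2 CPM with a prior count of 2. Tests were checked on simulated counts. Each pair of libraries of a group differed by more than sampling noise (lowest chi-square 4.08 per degree of freedom). Intervals and floors of counts cover counting error only.

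Alternatives were DESeq2 1.42.0, RLE factors, total counts alone, no filter beyond 1 count, all 36 libraries in 1 fit, an adjusted p of at most 0.01, leaving out each replicate, and the replicate number as a block. Numbers were taken to pair libraries where every same-numbered pair deviated together from the group means with a correlation over 0.1. This held for LPS in KO (0.299 to 0.829), CCM in unstimulated KO (0.338 to 0.842) and CCM under LPS in WT (0.151 to 0.360), since no source says that a number marks 1 animal. All 10 members were named whatever their values, and other genes only where a result turned on them. The members, lists, markers and motifs were chosen with earlier results of these data known. Coding sequences were read from GENCODE vM21 (54409 of the genes matched, 53462 with identical coordinates), since no protein table was given, and motifs from the RefSeq windows. The values of 1 gene of the interferon list are not reported here.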

Additional observations from a re-analysis of the deposited data

Results flagged for a closer look

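In groups of 6 KO libraries, 38 sets of values were tested for a library that lies far from the others (Dixon's test, which chance passes in about 1 of 20 groups), and 8 were found. In KO vehicle replicate 2, Gbp2 was at 20.2 CPM, Gbp3 at 14.2, Gbp5 at 11.7 and Gbp10 at 0.0445 CPM, each the highest of its group, and the Gbp10 value is 1 count where the other libraries had 0. Gbp2b was at 0.0311 CPM in KO vehicle replicate 4, likewise 1 count where the others had 0. Where all other libraries are at 0, any count passes this test, so the Gbp10 and Gbp2b flags were fixed in advance. The flags of replicate 2 come from 1 library and are not independent of each other. Gbp5 was highest in KO CCM replicate 4, at 2.39 CPM. Gbp9 was lowest in KO replicate 6, at 3.70 CPM with vehicle and 49.7 CPM with LPS.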

How the results depend on the processing

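LPS raised 10 members in WT, 9 to 10 under each alternative run, and 9 in KO, 8 to 10 under each. Gbp8 was the member lost. With total counts alone the median of all genes shifted to -0.47 in WT and -0.44 in KO in this comparison, on the log2 scale. For CCM against vehicle, the number of members called in WT was 0 in the main analysis and 2 with DESeq2, with no filter beyond 1 count and with the replicate block. In KO it was 0, and 1 with all 36 libraries in 1 fit, 2 with the replicate block and 0 to 2 when 1 KO replicate was left out, the 2 being without replicate 6. For LPS+CCM against LPS in WT it was 8, 0 with all 36 libraries in 1 fit, 9 with the replicate block and 7 to 8 when 1 library was left out. In KO it was 0, and 4 with DESeq2, 2 with all 36 libraries in 1 fit, 8 with the replicate block and 0 to 4 when 1 KO replicate was left out, the 4 being without replicate 6. Of single members, Gbp4 under CCM alone in KO had a log2 fold change of 0.061, which was -0.0704 without KO replicate 3, -0.0322 without KO replicate 4 and up to 0.16 in the other fits. The cause of these changes was not tested. The replicate block changed no other call of a member, and genotype and interaction counts were 0 in each alternative run. Gbp2b and Gbp10 had 1 count or none over the vehicle libraries of each genotype, which limits what can be seen of them in unstimulated cells.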
